A study of Homo sapiens with 4 samples.

Results

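Tubulin isotypes are the closely related alpha and beta proteins that pair into the building block of microtubules. The isotypes described here were chosen by gene name, not by any measured value: TUBA1A, TUBA1B, TUBA1C and TUBA4A for alpha-tubulin, and TUBB, TUBB2A, TUBB2B, TUBB3, TUBB4B and TUBB6 for beta-tubulin. Of these 10 genes, 9 were found by exact name among the 57773 genes of the deposited tables. The tenth, TUBB3, stood under 2 overlapping entries, TUBB3_1 and TUBB3_2, and is given apart from the rest. All RNA came from A2780, a human ovarian adenocarcinoma line grown in culture and labelled WT throughout, in 2 groups. The wogonin group held 2 libraries (wogonin 3 and 4) from cells given the plant flavone wogonin at 10 ug/mL for 48 h. The DMSO group held 2 libraries (DMSO 1 and 2) from cells labelled as given DMSO, the vehicle, with no dose or time of their own. The treatment protocol names wogonin for all 4 libraries, so the groups rest on the titles and treatment labels. The study asks whether wogonin limits ovarian cancer growth through DNA demethylation, and transcript levels alone do not answer that.

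Alpha- and beta-tubulin dimers add to and leave the ends of microtubules, which form the mitotic spindle and carry cargo. The isotypes differ mostly in their carboxy-terminal tails, where enzymes attach or remove amino acids. Cells also tune tubulin mRNA to the amount of free dimer. When free dimer is high, the factor TTC5 binds the first residues of tubulin chains as they leave the ribosome, and SCAPER then brings the CCR4-NOT deadenylase to the mRNA. TUBB3 is known as a neuronal isotype whose presence in carcinomas has been linked to taxane resistance.

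The coding starts are shown because the first 4 codons (in capitals) encode the stretch that TTC5 reads. They are the first 30 coding bases, 5′ to 3′, of the principal transcript of each gene in GENCODE release 29. TUBA1A and TUBA1C have the same 30 bases as TUBA1B.
TUBA1B: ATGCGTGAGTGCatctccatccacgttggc
TUBA4A: ATGCGTGAATGCatctcagtccacgtgggg
TUBB: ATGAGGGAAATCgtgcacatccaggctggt
TUBB2A: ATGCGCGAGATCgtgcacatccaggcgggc
TUBB2B: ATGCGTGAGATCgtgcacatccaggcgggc
TUBB3: ATGAGGGAGATCgtgcacatccaggccggc
TUBB4B: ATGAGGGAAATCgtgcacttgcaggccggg
TUBB6: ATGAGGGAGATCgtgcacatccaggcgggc
The first 12 bases took 6 spellings among the 10 genes. The coding sequences are close to each other along their whole length. TUBA1B was 97.2% identical in bases to TUBA1A and 96.8% to TUBA1C, and TUBB2A was 98.1% identical to TUBB2B. TUBB was between 80.9% and 84.7% identical to the other beta members. Reads from such genes can match more than 1 of them, so totals are given below beside the part that the authors' tables list as unique.

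Each library held between 11005921 and 11839562 exon reads. The floor of detection was set at 3 counts, or 0.253 to 0.273 CPM (exon reads scaled to the size of the library). The members together took 0.442% and 0.413% of the exon reads in wogonin 3 and 4, against 0.543% and 0.526% in DMSO 1 and 2. No library repeated another, since the exon counts differed beyond sampling noise within the wogonin pair (chi-square per degree of freedom 6.77), within the DMSO pair (2.86) and most of all between groups (51.7 or more). Wogonin 3 stood apart by its intron share (7.96% of the reads of genes with exons, against 5.26% to 5.61% in the others), and wogonin 4 by its mitochondrial share (3.03% of exon reads, against 1.45% to 1.67%). The labels do not say whether the 2 libraries of a group are separate cultures, so every p-value here reflects the spread of these samples alone, which may be technical. In bulk RNA, fewer cells with a transcript and less of it per cell cannot be told apart. Markers of epithelium and ovarian carcinoma were near 0: none of 11 averaged 1 TPM (the deposited level, per exon length), MUC16 had no read, and their sum was 1.53 and 0.888 TPM in wogonin 3 and 4, against 2.48 and 3.62 TPM in DMSO 1 and 2. Of 11 neuronal markers, SNAP25, ELAVL4, NEFL, NEFM and GAP43 had no read, and the sum was 196 and 189 TPM in the wogonin libraries, against 237 and 223 TPM in the DMSO libraries. NEFH, a neurofilament gene, made up most of that sum (162 and 154 TPM in wogonin, 216 and 205 TPM in DMSO), while INA, another neurofilament gene, had 30.6 TPM in both wogonin libraries, against 17.5 and 13.9 TPM in DMSO 1 and 2. Of 10 stromal, endothelial and blood markers, VWF, CDH5, PTPRC, CD3E and HBB had no read, and their sum was 6.001 and 5.83 TPM in wogonin 3 and 4, against 8.94 and 8.24 TPM in DMSO 1 and 2. The part of these markers in the results below was not tested.

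The main finding in the members is a drop of the mRNA of 1 alpha isotype, TUBA1B. The other alpha members tested changed less, with log2 fold changes of -0.22 for TUBA1A and -0.19 for TUBA1C. The beta member TUBB4B, at -0.34, fell further than these. CPM given below were also scaled by TMM factors, which allow for differences in library composition. Of the 9 genes found by name, 7 passed the filter on low counts. Among these, TUBA1B, TUBA1A, TUBA1C and TUBB4B were lower and TUBB was higher after wogonin, and TUBB2A and TUBB6 did not pass (edgeR quasi-likelihood test, Benjamini-Hochberg adjusted p under 0.05 over 13449 genes). These 5 calls stand against a background in which 63.8% of all genes tested were called, 31.5% as lower and 32.3% as higher, so that being called is the common case in these data. The wogonin and DMSO libraries did not overlap in 5 of the 7 genes, beside 81.9% of all genes tested. The median log2 fold change of the 7 genes was -0.19, beside -0.00066 for all genes tested. TUBA1B fell by 0.93 on the log2 scale, and 1514 of the 13449 genes (11.3%) were called and fell at least as far.

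**Figure D1:**
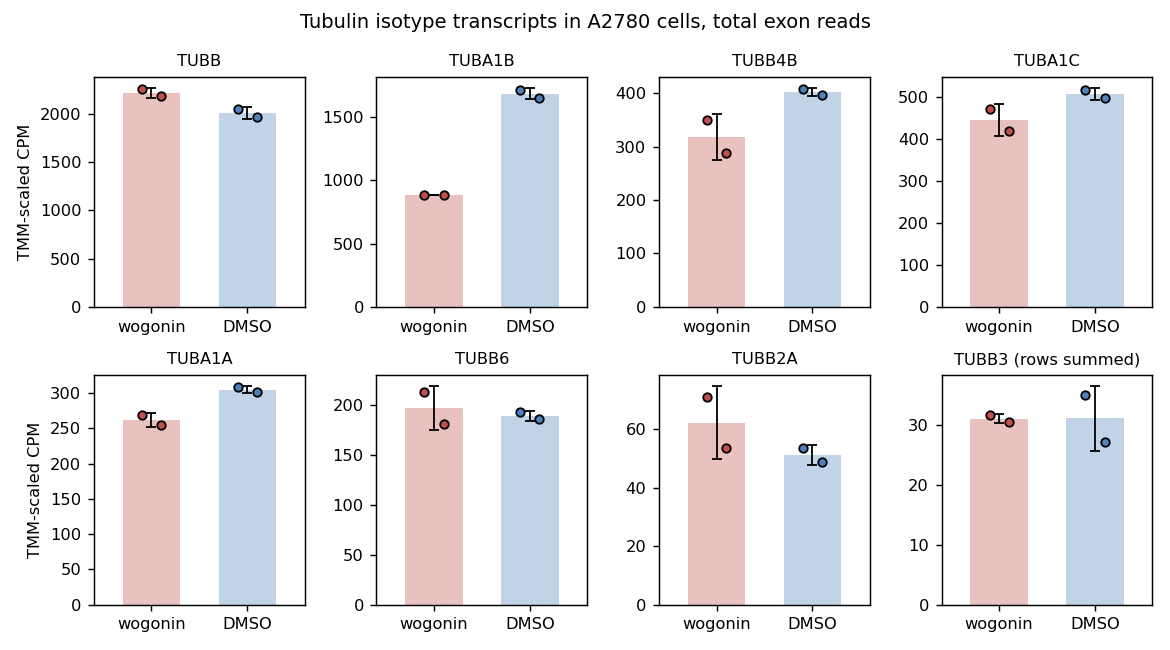
Levels of the tubulin isotypes in TMM-scaled CPM (vertical axes from 0) in wogonin and DMSO libraries; points are libraries, bars are means of 2 and error bars are SD. The wogonin points of TUBA1B lie near 887 CPM, against 1655 and 1718 CPM in DMSO, while the points of TUBB6, TUBB2A and TUBB3 overlap between groups.

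TUBA1B encodes the alpha isotype that most proliferating cells express at the highest level (ENSG00000123416, GRCh37 chromosome 12, 49521565 to 49525180, minus strand). It had 9494 and 9630 total exon reads in wogonin 3 and 4, against 20259 and 20284 in DMSO 1 and 2. Both treated libraries lay far below both controls, and the reads within a group were nearly equal. On the scaled level this was 887 ± 1.24 CPM in wogonin and 1686 ± 45.1 CPM in DMSO (SD, n = 2 each). The log2 fold change was -0.93 ± 0.05 (SE; edgeR adjusted p = 5.5e-10). The treated level was thus 0.526 times that of the controls. The call held in 16 of 16 alternatives, with values from -1.05 to -0.92.

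Only a small part of the TUBA1B reads was unique, at 18.1% and 18.9% in wogonin 3 and 4, against 19.1% and 19.5% in DMSO 1 and 2 (95% Wilson intervals 17.3 to 18.9%, 18.2 to 19.7%, 18.6 to 19.7% and 19.0 to 20.04%). In all 4 libraries every unique exon read of this gene was a read across an exon-exon junction. The antisense gene RP11-386G11.10 covers all 3616 bases of TUBA1B on the other strand, and 75.7% of the 50-base windows of the TUBA1B coding sequence also occur in another tubulin transcript. Whether either sets the low unique share was not tested, and whether counting used strand is not stated. TUBA1B fell in the unique reads too: there were 1718 and 1824 unique exon reads in wogonin 3 and 4, against 3871 and 3954 in DMSO 1 and 2. That gave -0.99 on the log2 scale (edgeR adjusted p = 1.2e-12). RP11-386G11.10 itself had 16 and 2 total exon reads in wogonin, against 4 and 1 in DMSO.

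TUBA1A, the alpha isotype most abundant in developing neurons, lies close to TUBA1B on chromosome 12 (ENSG00000167552, GRCh37, 49578579 to 49583107, minus strand). It had 2874 and 2767 total exon reads in wogonin 3 and 4, against 3637 and 3691 in DMSO 1 and 2. The groups did not overlap, but the gap was small beside that of TUBA1B. The level was 262 ± 9.28 CPM in wogonin and 305 ± 5.23 CPM in DMSO (SD, n = 2 each). The log2 fold change was -0.22 ± 0.06 (SE; edgeR adjusted p = 0.0026). Here 97.7% of the exon reads were unique, although 58.6% of its 50-base coding windows occur in another tubulin transcript. In unique junction reads, a count chosen after seeing the data, the log2 fold change was -0.44, with 470 and 426 reads in wogonin against 685 and 674 in DMSO.

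TUBA1C, a widely expressed alpha isotype, lies next to it on the plus strand (ENSG00000167553, GRCh37 chromosome 12, 49582519 to 49667114) and shares 589 bases of its span with TUBA1A. Its total exon reads were 5052 and 4541 in wogonin 3 and 4, against 6099 and 6086 in DMSO 1 and 2. The level was 445 ± 37.4 CPM in wogonin and 507 ± 14.8 CPM in DMSO (SD, n = 2 each), and the log2 fold change was -0.19 ± 0.06 (SE, edgeR adjusted p = 0.014). The groups did not overlap, but the scaled levels of wogonin 3 and 4 (471 and 419 CPM) lay farther apart than those of wogonin 3 and DMSO 2 (496 CPM). The call was lost without DMSO 1 (log2 fold change -0.17, edgeR adjusted p = 0.12) and without wogonin 4 (-0.11, edgeR adjusted p = 0.14). As in TUBA1B, few reads were unique (18.0% and 19.6% in wogonin, 19.0% and 20.4% in DMSO), and 99.5% of the unique ones were junction reads. The antisense genes RP11-977B10.2 and RP11-161H23.5 overlap 36.9% and 9.64% of the span of TUBA1C.

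TUBA4A, an alpha isotype known from platelets, muscle and neurons, was barely detected (ENSG00000127824, GRCh37 chromosome 2, 220114433 to 220142892, minus strand). It had 5 and 7 total exon reads in wogonin 3 and 4, against 2 and 2 in DMSO 1 and 2, and 5 and 4 unique ones in wogonin, against 2 and 2 in DMSO. These counts were too low for the filter, and with no filter the log2 fold change was 1.66 ± 0.92 (SE, edgeR adjusted p = 0.14).

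TUBB encodes the main beta isotype of dividing cells (ENSG00000196230, GRCh37 chromosome 6, 30687978 to 30693203, plus strand) and was the most abundant tubulin transcript in all 4 libraries. It had 24152 and 23654 total exon reads in wogonin 3 and 4, against 24233 and 24100 in DMSO 1 and 2. The raw reads were thus almost level, and a difference appeared once library composition was scaled. The scaled level was 2217 ± 51.9 CPM in wogonin and 2011 ± 63.3 CPM in DMSO (SD, n = 2 each). The log2 fold change was 0.14 ± 0.05 (SE; edgeR adjusted p = 0.028). This call depended on the setting. It was lost with library totals alone and with upper-quartile scaling (log2 fold change 0.05 in both, edgeR adjusted p = 0.44 and 0.43), settings under which the all-gene median was -0.09. It was also lost in total and unique gene reads (0.06 and 0.10), and without DMSO 1 (0.16, edgeR adjusted p = 0.12), DMSO 2 (0.10, edgeR adjusted p = 0.29) or wogonin 3 (0.12, edgeR adjusted p = 0.079). Unique reads made up 73.1% and 72.7% of its exon reads in wogonin, against 72.0% and 71.5% in DMSO, and gave a log2 fold change of 0.16.

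TUBB4B, a beta isotype found in most tissues and abundant in cilia, was the beta member with the clearest fall (ENSG00000188229, GRCh37 chromosome 9, 140135665 to 140138159, plus strand). It had 3745 and 3131 total exon reads in wogonin 3 and 4, against 4811 and 4867 in DMSO 1 and 2. Wogonin 4 was the lowest library, and both treated libraries lay below both controls. The level was 319 ± 43.0 CPM in wogonin and 403 ± 7.81 CPM in DMSO (SD, n = 2 each). The log2 fold change was -0.34 ± 0.08 (SE; edgeR adjusted p = 0.0040). The call held in 16 of 16 alternatives, but without wogonin 4 the value was -0.21. At least 98.0% of its exon reads were unique in each library, and it shares 124 bases with FAM166A on the other strand.

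TUBB6, a beta isotype common outside the nervous system (ENSG00000176014, GRCh37 chromosome 18, 12307668 to 12344319, plus strand), had 2277 and 1965 total exon reads in wogonin 3 and 4, against 2271 and 2275 in DMSO 1 and 2. The groups overlapped, and the level was 197 ± 22.2 CPM in wogonin and 189 ± 4.98 CPM in DMSO (SD, n = 2 each; log2 fold change 0.06 ± 0.07 SE, edgeR adjusted p = 0.50). Unique reads made up at least 98.8% of its exon reads in each library. The gene AFG3L2 overlaps 42.0% of the span of TUBB6 on the other strand. TUBB2A, a beta isotype of neurons and other tissues (ENSG00000137267, GRCh37 chromosome 6, 3153903 to 3157760, minus strand), had 763 and 580 total exon reads in wogonin 3 and 4, against 634 and 598 in DMSO 1 and 2. Wogonin 3 was the highest of its libraries, and wogonin 4 lay within the range of the controls once scaled. The log2 fold change of TUBB2A was 0.28 ± 0.13 (SE, edgeR adjusted p = 0.087). It was 0.47 without wogonin 4, where it passed (edgeR adjusted p = 9.2e-05), and 0.07 without wogonin 3. Its reads were between 46.3% and 47.9% unique, and 72.4% of its 50-base coding windows also occur in TUBB2B. TUBB2B, a beta isotype of the developing brain (ENSG00000137285, GRCh37 chromosome 6, 3224495 to 3231964, minus strand), had 1 exon read in DMSO 1 and none in the other 3 libraries, which allows up to 0.273 CPM in wogonin 3.

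TUBB3, the neuronal beta isotype, was listed as TUBB3_1 (ENSG00000198211, GRCh37 chromosome 16, 89985573 to 90002500) and TUBB3_2 (ENSG00000258947, 89987800 to 90005169), which share 14701 bases on the plus strand. TUBB3_2 had 267 and 259 total exon reads in wogonin 3 and 4, against 335 and 327 in DMSO 1 and 2, and its log2 fold change was -0.17 ± 0.10 (SE; edgeR adjusted p = 0.15). TUBB3_1 had 72 and 72 in wogonin 3 and 4, against 77 and 7 in DMSO 1 and 2 (log2 fold change 0.92 ± 1.19 SE, edgeR adjusted p = 0.57). DMSO 2 stood alone there with its low count. TUBB3_1 also shares 1813 bases with MC1R on the same strand. Almost no exon read was unique to either entry: the sole one, in TUBB3_1, came from wogonin 4. Summed over both entries, a choice made after seeing the data, TUBB3 had 339 and 331 reads in wogonin, against 412 and 334 in DMSO. That sum gave 31.1 ± 0.79 CPM in wogonin and 31.1 ± 5.44 CPM in DMSO (SD, n = 2 each). The log2 fold change was 0.00061 ± 0.12 (SE; edgeR adjusted p = 1.00). TUBB3_2 passed with library totals alone and with upper-quartile scaling (-0.27 in both, edgeR adjusted p = 0.0345 and 0.0337). Without DMSO 1, the value of TUBB3_1 was 3.51 (edgeR adjusted p = 2.2e-04), a call that rests on the 7 reads of DMSO 2.

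**Figure D2:**
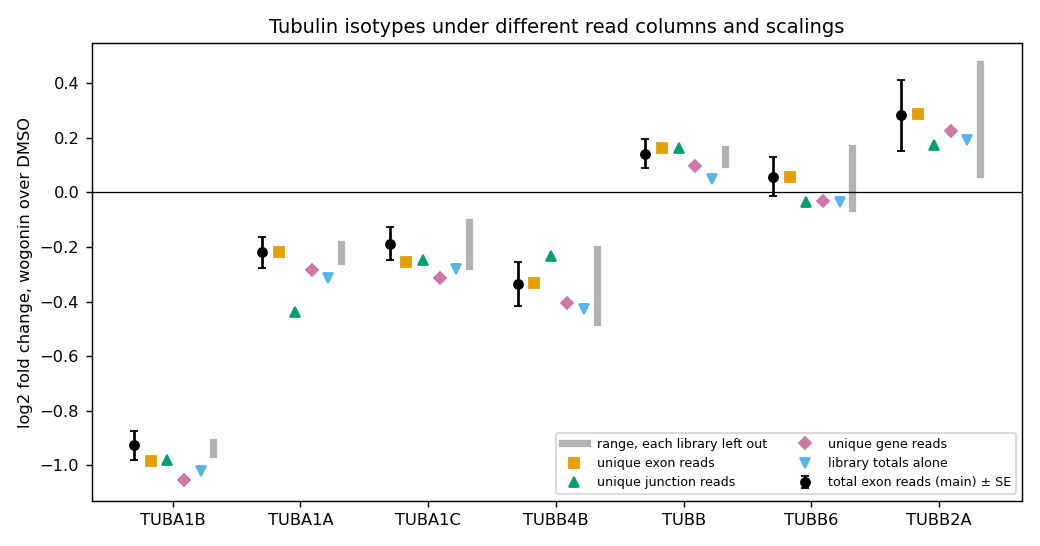
Log2 fold change of wogonin over DMSO for the 7 tested isotypes, under the main fit (black, ± SE), unique exon, junction and gene reads, library totals alone, and the range over fits that each leave out 1 library (grey bars). TUBA1B stays between -1.05 and -0.92, while the values of TUBB6 lie on both sides of 0.

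Set against each other as deposited TPM, which rest on total exon reads per exon length, the isotypes formed a steep order. In the DMSO libraries TUBB stood first at 2592 and 2529 TPM, followed by TUBA1B at 2037 and 2000 TPM. TUBB4B (819 and 813 TPM), TUBA1C (652 and 639 TPM), TUBA1A (382 and 380 TPM), TUBB6 (198 and 195 TPM), TUBB2A (132 and 122 TPM) and TUBB3 summed over both entries (63.9 and 57.8 TPM) came next, with no overlap between neighbours. In the wogonin libraries the order was the same, with TUBB at 2674 and 2453 TPM and TUBA1B at 988 and 939 TPM, but some neighbours overlapped. TUBB4B at 660 and 517 TPM overlapped TUBA1C at 559 and 471 TPM there. TUBA1A stood at 312 and 282 TPM, TUBB6 at 206 and 166 TPM, TUBB2A at 164 and 117 TPM and the TUBB3 sum at 53.3 and 48.5 TPM, so the lower TUBB6 value lay just above the higher TUBB2A value. In unique exon reads per exon length, scaled in the same way, the order was not the same. That scale kept 97.7% of the exon reads of TUBA1A and 99.2% of those of TUBB6. Of those of TUBA1B and TUBA1C it kept 19.1% and 19.3%, so it does not rank these genes by mRNA level. On that scale TUBA1A stood at 359 and 321 in wogonin 3 and 4, above TUBA1B at 210 and 208, while in DMSO 1 and 2 TUBA1A stood at 437 and 436, just below TUBA1B at 456 and 457. TUBA1C, at 118 and 108 in wogonin and 145 and 153 in DMSO, lay below TUBB6, at 239 and 193 in wogonin and 230 and 227 in DMSO.

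The alpha members summed to 1860 and 1692 TPM in wogonin 3 and 4, against 3071 and 3019 TPM in DMSO 1 and 2. The beta members summed to 3757 and 3301 TPM in wogonin 3 and 4, against 3805 and 3716 TPM in DMSO 1 and 2. The alpha sums of the groups were far apart, and the beta sums overlapped. These TPM carry no TMM scaling, unlike the CPM above, in which the TUBB levels of the wogonin libraries lay above those of DMSO. The ratio of the alpha to the beta sum was 0.504 ± 0.0123 in wogonin and 0.810 ± 0.00383 in DMSO (SD, n = 2 each). With 2 libraries a group, the smallest p of an exact permutation test is 0.333, so these sums and shares are given with no test. Within the alpha sum, TUBA1B took 54.3 ± 1.67% in wogonin and 66.3 ± 0.0458% in DMSO (SD, n = 2 each), while TUBA1C took 30.1% and 27.8% in wogonin 3 and 4, against 21.2% and 21.1% in DMSO 1 and 2, and TUBA1A took 16.7 ± 0.101% in wogonin and 12.5 ± 0.111% in DMSO (SD, n = 2 each). Within the beta sum, TUBB took 72.7 ± 2.21% in wogonin and 68.1 ± 0.0493% in DMSO, and TUBB4B took 16.6 ± 1.35% in wogonin and 21.7 ± 0.246% in DMSO (SD, n = 2 each). The shares depend on whether total or unique reads are used. From unique exon reads TUBA1B took 31.6% of the alpha sum in wogonin and 43.8% in DMSO, and TUBA1C took 17.0% in wogonin and 14.3% in DMSO. TUBA1A took 51.3% in wogonin and 41.9% in DMSO on that basis, and so had the largest of the alpha shares in wogonin. Over all libraries unique reads were 97.7% of the exon reads of TUBA1A, but 19.1% for TUBA1B and 19.3% for TUBA1C. Shares and sums on that basis thus compare unequal parts of these genes and do not rank their mRNA. In both counts the share of TUBA1B was lower in wogonin than in DMSO. The ratio of alpha to beta on that basis was 0.210 ± 0.0102 in wogonin and 0.307 ± 0.00703 in DMSO (SD, n = 2 each).

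**Figure D3:**
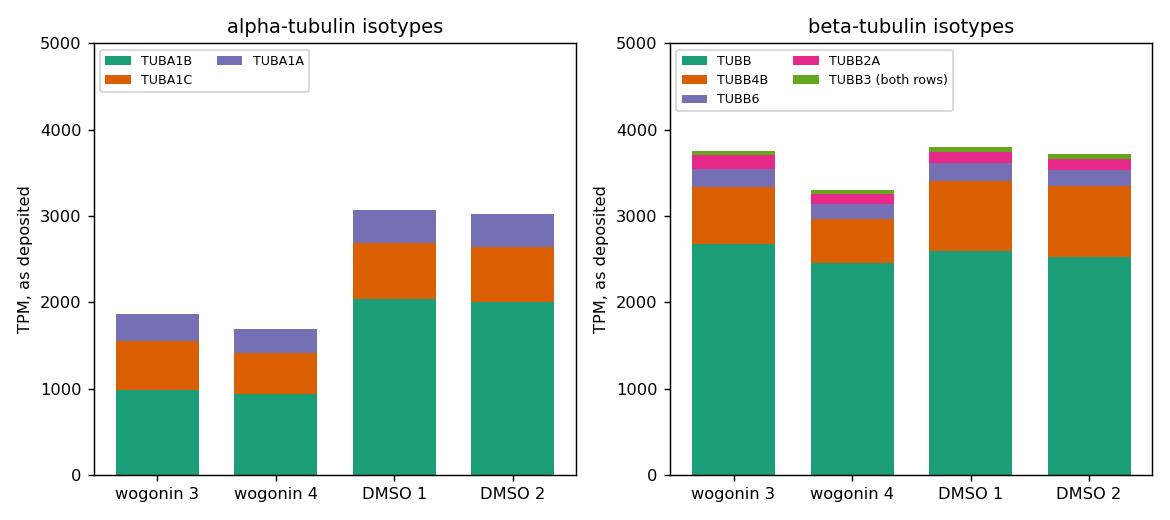
Deposited TPM of the alpha (left) and beta (right) isotypes stacked by gene for each library; TUBA4A and TUBB2B, below 1 TPM, are left out. The alpha stacks reach 1860 and 1692 TPM in wogonin 3 and 4, against 3071 and 3019 TPM in DMSO, while the beta stacks overlap between groups.

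Intron reads, which come mostly from RNA not yet spliced, were few in most of these genes. Of the members, TUBB, TUBA1C and TUBB6 had enough of them to pass the filter, among 10495 genes of which 20.1% were called (11.3% higher and 8.82% lower). TUBB had 19 and 22 total intron reads in wogonin 3 and 4, against 3 and 7 in DMSO 1 and 2. Both treated libraries were higher. TUBB passed the filter on low counts only through the wogonin libraries, where it was high, so its log2 fold change of 1.73 ± 0.55 (SE) is a description with no test. TUBB6 had 124 and 93 intron reads in wogonin 3 and 4, against 147 and 143 in DMSO 1 and 2. AFG3L2 overlaps 42.0% of the span of TUBB6 on the other strand, and whether reads of AFG3L2 are among these was not tested. The intron log2 fold change of TUBB6, -0.72 ± 0.25, did not pass (SE, edgeR adjusted p = 0.051). The TUBB6 intron change passed in unique intron reads (-0.85, edgeR adjusted p = 0.029) and with library totals alone (-0.73, edgeR adjusted p = 0.0495). It was -0.64 without wogonin 3, -0.85 without wogonin 4, -0.69 without DMSO 1 and -0.78 without DMSO 2. Those fits leave a lone library in a group, so no call is given for them. TUBA1C had 67 and 44 total intron reads in wogonin, against 33 and 54 in DMSO, and these totals overlapped (log2 fold change 0.04 ± 0.31 SE, edgeR adjusted p = 0.95). Few of them were unique, at 13 and 14 in wogonin 3 and 4, against 6 and 11 in DMSO 1 and 2. Between 0 and 7 intron reads per library fell in each of TUBA1A, TUBA1B, TUBA4A, TUBB2A and TUBB4B, and TUBB2B had none, so the fall of TUBA1B could not be followed in unspliced RNA at this depth.

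The difference between exon and intron change was tested in 1 model with library as a block, where 10.6% of 9475 genes passed, 4.15% with the larger value in exons and 6.42% in introns. The values of TUBB6 and TUBA1C missed the threshold. The exon change of TUBB minus its intron change was -1.65 ± 0.53 log2 units (SE), again with no test, since it rests on the same intron reads. For TUBB6 the difference was 0.72 ± 0.26 (SE, edgeR adjusted p = 0.092). It did not pass in unique reads (0.85, edgeR adjusted p = 0.057) or with library totals alone (0.68, edgeR adjusted p = 0.11). It was 0.51 and 0.97 without wogonin 3 and 4, and 0.71 and 0.75 without DMSO 1 and 2. Those fits leave a lone library in a group, so no call is given for them. For TUBA1C the difference was -0.29 ± 0.31 (SE, edgeR adjusted p = 0.61). The counts of genes called in these fits moved by over 1.5 times without any 1 of the 4 libraries.

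**Figure D4:**
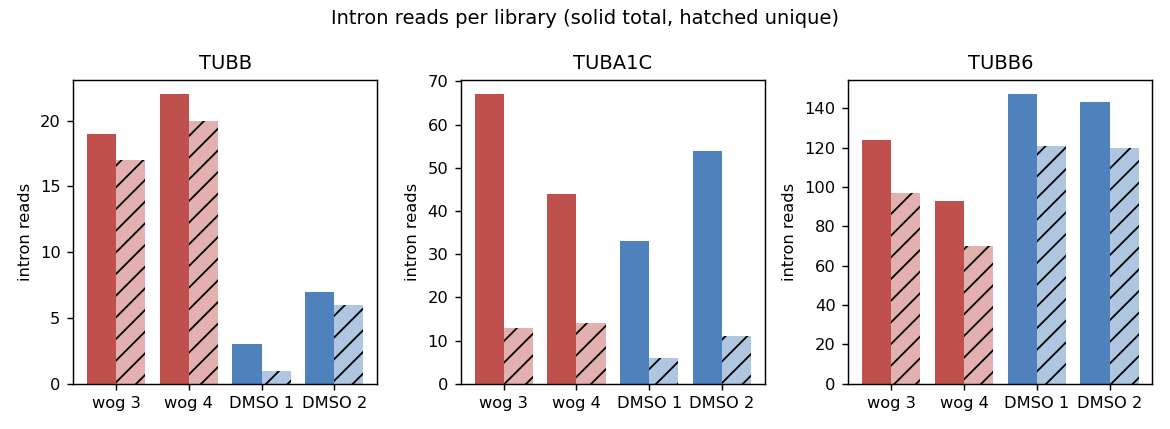
Intron reads of the 3 members that passed the filter, per library, as total (solid) and unique (hatched) counts. TUBB has 19 and 22 total intron reads in wogonin, against 3 and 7 in DMSO, while those of TUBA1C overlap between groups.

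The promoters shown are those of TUBA1B and TUBB4B, picked as the alpha and the beta member that fell most. Each promoter has a single start in RefSeq. Each is the 250 bases before the start, 5′ to 3′ on the strand of the gene, GRCh38.p14, with motif matches on either strand in capitals. The motifs searched, on both strands, were the CCAAT box, the GC box GGGCGG, the TATA box TATAAA and the E-box CACGTG. The first stretch is chr12:49131396-49131645 (minus strand) and the second is chr9:137241037-137241286 (plus strand).
TUBA1B: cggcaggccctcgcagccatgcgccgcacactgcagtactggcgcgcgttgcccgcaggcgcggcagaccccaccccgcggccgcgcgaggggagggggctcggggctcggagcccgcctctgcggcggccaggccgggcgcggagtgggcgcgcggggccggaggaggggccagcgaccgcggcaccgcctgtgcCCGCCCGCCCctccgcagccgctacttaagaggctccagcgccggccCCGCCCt
TUBB4B: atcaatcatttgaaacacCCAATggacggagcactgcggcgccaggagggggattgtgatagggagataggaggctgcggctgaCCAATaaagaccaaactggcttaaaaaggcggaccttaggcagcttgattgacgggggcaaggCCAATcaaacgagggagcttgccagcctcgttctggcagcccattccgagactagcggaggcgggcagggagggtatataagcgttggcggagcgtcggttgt
The TUBA1B window held GGGCGG 3 times (as CCGCCC, 2 of them overlapping) and no other motif. The TUBB4B window held CCAAT 3 times and no exact match to another motif. Only exact letters were searched, so the stretch tatataag near its end was not counted. Of 35116 promoters of this length, 42.6% hold GGGCGG, 32.01% hold CCAAT, 10.7% hold TATAAA and 6.34% hold CACGTG. The 2 windows shown share none of these motifs. TUBA1A, TUBA4A, TUBB2A and TUBB2B also have a single start. The TUBA1A window, not shown, held CCAAT 2 times and none of the other motifs. A match is a description of the letters, not a binding site.

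Genes around the isotypes were described from lists chosen with earlier results of these data known. The counts of each list stand beside all genes tested, of which 63.8% were called, 31.5% as lower and 32.3% as higher. Of the 13 other tubulin genes, 7 were tested, of which 3 were lower, 2 were higher and 2 did not pass. TUBB4A, a beta isotype of brain (gene on chromosome 19), fell to 3.67 ± 0.49 CPM in wogonin, against 18.6 ± 1.92 CPM in DMSO (SD, n = 2 each; log2 fold change -2.34 ± 0.17 SE, edgeR adjusted p = 9.3e-09). This was a larger fold than that of any tested member. TUBE1, the epsilon-tubulin of centrioles, fell by 0.69 on the log2 scale. TUBG2, a gamma-tubulin of the ring complex that starts microtubules, was higher at a log2 fold change of 0.60. In the list of that ring complex and its anchors 5 of 14 genes were higher and 4 lower, with CDK5RAP2, a centrosomal activator of the complex, at -1.11 and the scaffold AKAP9 at -0.56. The median of that list was 0.02.

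Tubulin pseudogenes were mostly without reads. Of 37 tubulin pseudogenes by name, 31 had no exon read in any library. TUBBP5 had the most, at 115 and 142 total exon reads in wogonin 3 and 4, against 505 and 560 in DMSO 1 and 2 (log2 fold change -1.89 ± 0.12 SE, edgeR adjusted p = 1.3e-09), and 89.3% of them were unique. TUBA3FP had 29 and 22 reads in wogonin, against 94 and 119 in DMSO, of which 15.9% were unique, and overlaps THAP7-AS1 and P2RX6 (log2 fold change -1.90, edgeR adjusted p = 3.0e-06). TUBBP5 and TUBA3FP both fell by more log2 units than any tested member. TUBB7P had 5 and 4 reads in wogonin, against 12 and 17 in DMSO. It passed the filter only through the DMSO libraries, where it was high, so no test is given. TUBB8P7 had 11 and 7 reads in wogonin, against 13 and 14 in DMSO, and did not pass (edgeR adjusted p = 0.43).

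Genes that fold tubulin went both ways: of 22 tested, 8 were higher, 5 lower and 9 did not pass, with a median of -0.01. Among all genes tested 32.3% were higher and 31.5% lower. The prefoldin subunits, which hand new tubulin chains to the TRiC chaperonin, were split. PFDN2 was at 105 ± 0.85 CPM in wogonin and 64.3 ± 2.11 CPM in DMSO (SD, n = 2 each; log2 fold change 0.71, edgeR adjusted p = 2.9e-07), while PFDN4 was at 12.4 ± 1.07 CPM in wogonin and 25.3 ± 0.93 CPM in DMSO (log2 fold change -1.02, edgeR adjusted p = 1.9e-06). CCT3, a subunit of TRiC, was higher, at a log2 fold change of 0.46.

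In the list for tubulin mRNA autoregulation 6 of 11 genes were lower, 3 were higher and 2 did not pass. The list median was -0.30. Among all genes tested 63.8% were called, 31.5% as lower and 32.3% as higher. SCAPER, the adaptor between TTC5 and the deadenylase, rose to 39.0 ± 0.71 CPM in wogonin, against 22.1 ± 1.04 CPM in DMSO (SD, n = 2 each; log2 fold change 0.82 ± 0.10 SE, edgeR adjusted p = 2.4e-06). CNOT1, the scaffold of CCR4-NOT, fell by 0.44 and its partner CNOT3 by 0.54 on the log2 scale. TTC5 itself, named after its value was seen, had 166 and 155 total exon reads in wogonin 3 and 4, against 236 and 247 in DMSO 1 and 2 (log2 fold change -0.43 ± 0.12 SE, edgeR adjusted p = 0.0051). The call of TTC5 was lost in gene reads, both total (-0.07, edgeR adjusted p = 0.60) and unique (-0.09, edgeR adjusted p = 0.47), and under DESeq2 (-0.43, adjusted p = 0.072). These are mRNA levels and do not measure the decay of tubulin mRNA.

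Among enzymes that modify tubulin, 6 of 18 tested were higher, 7 lower and 5 did not pass, with a median of 0.11. The shares over all genes tested were 32.3% higher and 31.5% lower. TTL, which restores the carboxy-terminal tyrosine of alpha-tubulin, rose to 271 ± 2.48 CPM in wogonin, against 169 ± 3.33 CPM in DMSO (SD, n = 2 each; log2 fold change 0.68 ± 0.06 SE, edgeR adjusted p = 3.5e-08). AGBL5, which trims branching glutamates from tubulin tails, fell to 48.5 and 52.6 CPM in wogonin 3 and 4, against 113 and 116 CPM in DMSO 1 and 2 (log2 fold change -1.18, edgeR adjusted p = 1.8e-09). TTLL3, a tubulin glycylase, had a log2 fold change of 1.42 in total and 0.82 in unique exon reads and was called in both. The genes ARPC4-TTLL3 (same strand) and RPUSD3 (other strand) overlap it, and 13.2% of its exon reads were unique, so the size of its change is uncertain.

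Of 28 tested microtubule-associated genes, 12 were lower, 6 were higher and 10 did not pass. Their median was -0.14. The shares over all genes tested, for this list and the severing list below, were 31.5% lower and 32.3% higher. STMN1, which encodes stathmin, a protein that binds free tubulin dimers and promotes disassembly, fell to 142 and 125 CPM in wogonin 3 and 4, against 384 and 370 CPM in DMSO 1 and 2 (log2 fold change -1.50 ± 0.07 SE, edgeR adjusted p = 3.6e-11). The spindle assembly factor TPX2 fell by 0.81 and the microtubule polymerase CKAP5 by 0.60 on the log2 scale. Of 7 tested severing genes 4 were lower and 3 did not pass, with a median of -0.31. They included the katanin-like KATNBL1 (-0.85), spastin, encoded by SPAST (-0.56), and the katanin catalytic subunit KATNA1 (-0.43).

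**Figure D5:**
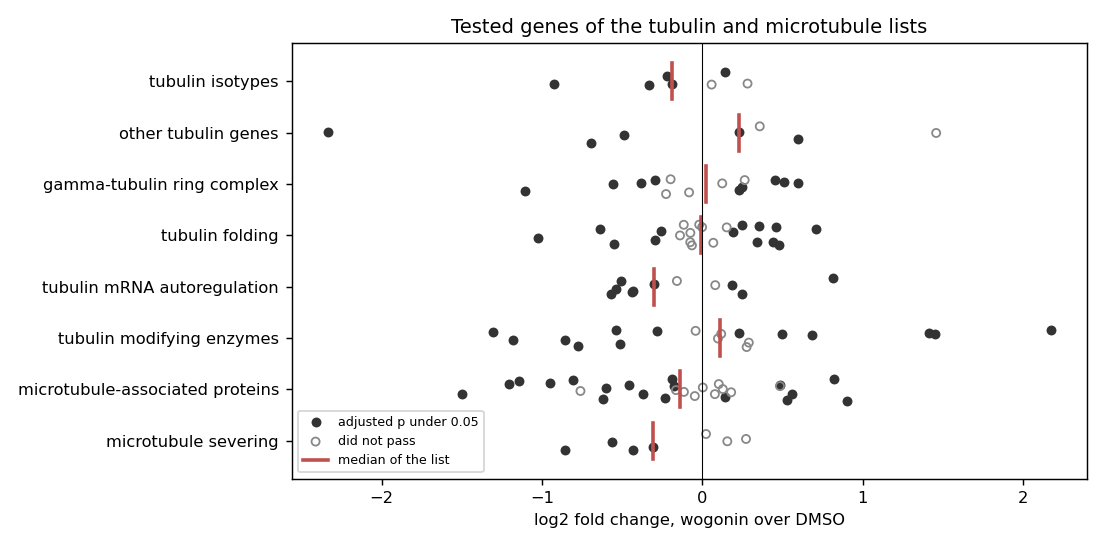
Log2 fold change of wogonin over DMSO for the tested genes of 8 tubulin and microtubule lists; filled points passed at an adjusted p under 0.05, open points did not, and the red lines are list medians. The isotypes lie between -0.93 and 0.28, and the severing list has a median of -0.31.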

How the data were processed

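RNA of 4 A2780 libraries, 2 treated with wogonin and 2 with DMSO, was made into libraries with a SMARTER mRNA kit after column extraction, per the labels' protocols. The authors deposited, per the file headers, read counts per gene for exons, introns and exon-exon junctions, each as total and unique reads. They also deposited TPM values, which matched total exon reads per exon length, RPKM values, and fractions of unique and of intron reads, per the file headers. The RPKM values and fractions were not used. The builds named in the submitters' processing notes are GRCh37 and hg19. For the aligner, the counting tool and the strand setting, the entry is: not given in the sources used here.

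Low total exon counts were removed by filterByExpr, libraries were scaled by TMM, and treatment was tested by a robust quasi-likelihood fit (edgeR 4.0.16, R 4.3.3, 2-sided). The p-values were adjusted by Benjamini-Hochberg over all genes tested. Intron counts of genes with exons were fitted likewise, leaving out the 20986 genes whose tables list no exons. Exon minus intron change was tested in 1 model with library as a block. The fits were also run on simulated counts in which few genes changed. In the exon reads of these data 63.8% of genes tested were called, so that run does not show how the fits behave here. Alternatives were other scalings, filters, count columns, DESeq2 1.42.0, limma-voom (limma 3.58.1) and leaving out each library. The 10 members were all named, with up to 3 genes of each list by smallest adjusted p and the 4 pseudogenes with most reads. Members were chosen by gene name and not by a measured value. Both members and lists were chosen with earlier results of these data known. Coding sequences came from GENCODE and promoters from RefSeq, both of another build (GRCh38). No molecular identifiers are described and reads may repeat a molecule, so intervals and floors reflect counting error alone.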

Additional observations from a re-analysis of the deposited data

How the results depend on the processing

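The calls of TUBA1B, TUBA1A and TUBB4B kept their direction and their side of the threshold in 16 of 16 alternatives each, with log2 fold changes from -1.05 to -0.92, -0.44 to -0.19 and -0.47 to -0.21. TUBA1C lost its call in 2 of 16, both fits that leave out a library, and TUBB in 7 of 16. The number of isotypes called as higher was 1, but 0 with library totals alone, upper-quartile factors, total gene reads and unique gene reads, and 2 with no filter, where TUBB2A was added. It ranged from 0 to 2, and the number called in either direction from 3 to 5 (3 without DMSO 1, where TUBA1C and TUBB were lost), over the fits that leave out 1 library. Over those fits the genes called ranged from 653 to 4008 in intron reads and from 229 to 2742 for exon against intron change, the cause was not tested, and these fits assume that the lone library of a group varies like the others. From unique exon reads over exon length the mean shares were 31.6% in wogonin and 43.8% in DMSO for TUBA1B of alpha, 69.4% in wogonin and 63.5% in DMSO for TUBB of beta, and 21.4% in wogonin and 27.7% in DMSO for TUBB4B of beta. On that basis TUBA1A took 51.3% of alpha in wogonin and 41.9% in DMSO. Unique reads were 97.7% of the exon reads of TUBA1A and 19.1% of those of TUBA1B, so that basis compares unequal parts of the genes. The cause was not tested. The 20 genes named by rule from the lists kept their calls and directions in 16 of 16 alternatives each, and TTC5, named beside them, in 13 of 16. No paired analysis was possible because the groups share no replicate numbers. With 2 libraries a group, low counts limit what can be said of TUBA4A, TUBB2B and most introns.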
